A study of Equus caballus with 10 samples.

Results

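The genes described here are those of endoplasmic reticulum (ER) stress and of amino acid stress: the chaperones and folding enzymes of the ER, the genes of ER-associated degradation, the sensors and transcription factors of the unfolded protein response, genes of the COPII coat, and ATF4 with its targets. They were taken from a list of names, which was drawn up with earlier results of these data known. Of 40 listed genes, 39 were found by name among the 29196 genes of the deposited table, and all 39 passed the filter on low values, as did 17992 genes in all. MIA3, the gene of a receptor that loads procollagen into export carriers, was the listed gene not found by name.

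The RNA came from primary tendon cells (tenocytes) of adult horses, 5 lines from 5 donors, called lines 1 to 5 in what follows. The cells came from the superficial digital flexor tendon and were cultured for 14 days in 3D in bovine collagen type 1 gels, in medium with fetal bovine serum. Every culture was given PF-06650833 at 100 nM each day, a compound that inhibits IRAK-4, a kinase of IL-1 receptor signalling. Each line gave 1 library without IL-1β (the PF group) and 1 library in which IL-1β was also added at 17 ng/ml every few days (the PF and IL-1β group). All 10 libraries therefore carried the inhibitor, so "with IL-1β" and "without IL-1β" below always mean in its presence, and libraries without the inhibitor were not analysed here. Values are the deposited log2 expression, which has the form of variance-stabilized values, so that a log2 difference of 1 is about a doubling for genes with as many reads as these. A gene passed the test at an adjusted p below 0.05 from limma over all tested genes, in a main fit without a term for the line. The libraries are paired by line, and calls from a second fit with such a term (the block) are also given. The main fit was repeated 15 times, leaving out each of the 10 libraries and each of the 5 lines in turn, and these are called the leave-out fits.

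Depth, as estimated reads on genes, ran from 26692774 to 35955172 in the libraries without IL-1β. In those with IL-1β it ran from 26944627 to 33434620. The tendon genes SCX, MKX, COL1A1, COL1A2 and DCN were detected in all 10 libraries, and tenomodulin (TNMD) was at the value of 0 reads in all of them. With minus without IL-1β, SCX differed by -3.24 (adjusted p = 0.000611) and MKX by -2.85 (adjusted p = 0.00554) on the log2 scale. COL1A1 (-1.38, adjusted p = 0.0682), COL1A2 (-1.28, adjusted p = 0.0614) and THBS4 (-1.22, adjusted p = 0.437) did not pass. With a term for the line, COL1A1 and COL1A2 passed (adjusted p = 0.0147 and 0.0169). DCN went the other way, higher in all 5 lines, and did not pass (1.01, adjusted p = 0.268). Of the markers of other cells, CD3E, EPCAM, MYOD1 and MYOG were at 0 reads in every library and PTPRC had at most 3 reads. The summed normalized count of the 4 epithelial markers, nearly all of it CDH1, was 539 to 1574 without IL-1β and 45.4 to 444 with IL-1β. For the 5 pericyte and smooth muscle markers it was 3711 to 37280 and 4550 to 13270, for the 6 leukocyte markers 61.3 to 1766 and 171 to 1943, for the 4 endothelial markers 6.83 to 38.3 and 3.88 to 26.2, and for the 4 skeletal muscle markers 4.49 to 1150 and 0 to 13.4. In most libraries MYH11 gave the largest share of the pericyte and smooth muscle sum, and single markers moved with the groups in all 5 lines. The macrophage marker CD68 rose by 1.70 on the log2 scale (adjusted p = 0.00795) without overlap. Among the other leukocyte markers, CD14 (2.66, adjusted p = 0.34, 0 to 1452 reads) and ITGAM (0.37, adjusted p = 0.568) did not pass. CSF1R had at most 1 read. The pericyte and muscle markers DES (-2.98, adjusted p = 0.00546), RGS5 (-1.96, adjusted p = 0.0106) and CSPG4 (-1.84, adjusted p = 0.00212) fell, as did CDH1 (-2.22, adjusted p = 0.0136). From the same pericyte and smooth muscle list, MYH11 (-0.56, adjusted p = 0.678) and MCAM (0.34, adjusted p = 0.71) did not pass. The part of these markers in the results was not tested. In bulk RNA, fewer cells expressing a gene cannot be told apart from less RNA of that gene per cell.

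Secreted proteins such as collagen are folded in the ER by chaperones, and unfolded protein there is sensed by 3 membrane proteins, which are encoded by ERN1 (IRE1), ATF6 and EIF2AK3 (PERK). IRE1 splices the mRNA of XBP1, and XBP1 and cleaved ATF6 then raise transcription of chaperones and degradation genes. PERK, like other kinases that sense viral RNA or a lack of amino acids or haem, phosphorylates the initiation factor eIF2α, which slows translation in general and favours translation of ATF4. ATF4 activates genes for amino acid synthesis, uptake and tRNA charging, and, with DDIT3 (CHOP), genes such as TRIB3 and CHAC1. Tenocytes are collagen-secreting cells, so the ER folding machinery is prominent in them.

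The members split by function. Of the 15 chaperones and folding enzymes, 5 rose with IL-1β and 0 fell, and all 15 differences were above 0 (median log2 difference 0.52). These 15 varied together over the libraries (median correlation 0.81 after removal of the group means), so they are not 15 separate observations. Of the 13 genes of the ATF4 branch (ATF4, DDIT3, their stress targets and the amino acid genes), 9 fell and 0 rose, and 11 differences were below 0 (median -0.88). Over all members 18 of 39 passed the test, 6 higher and 12 lower, where 15.5% of all tested genes passed it, 7.57% higher and 7.89% lower. The median log2 difference of all tested genes was -0.0063, and 50.7% of them had a difference below 0. When the line (the replicate number) was held as a block, 24 of 39 members passed, 10 higher and 14 lower, where 22.2% of all genes did. The thresholds of the paper, which tested with DESeq2, also ask for an absolute log2 difference of at least 1. Applied to the limma fit they were met by 7 of 39 members, all lower, where 6.68% of all tested genes met them, and 8.26% with the block. These 7 genes were CREB3L1, TRIB3, CHAC1, ASNS, PSAT1, PHGDH and MTHFD2. The groups did not overlap in 12 members, 10 of them lower and 2 higher, where 12.7% of tested genes did not overlap, 6.41% lower and 6.29% higher. With each library centred on its median over the tested genes, 9 members passed as higher and 9 as lower. The share of all tested genes in that fit is not given here, so these counts only show how the calls depend on centring.

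**Figure D1:**
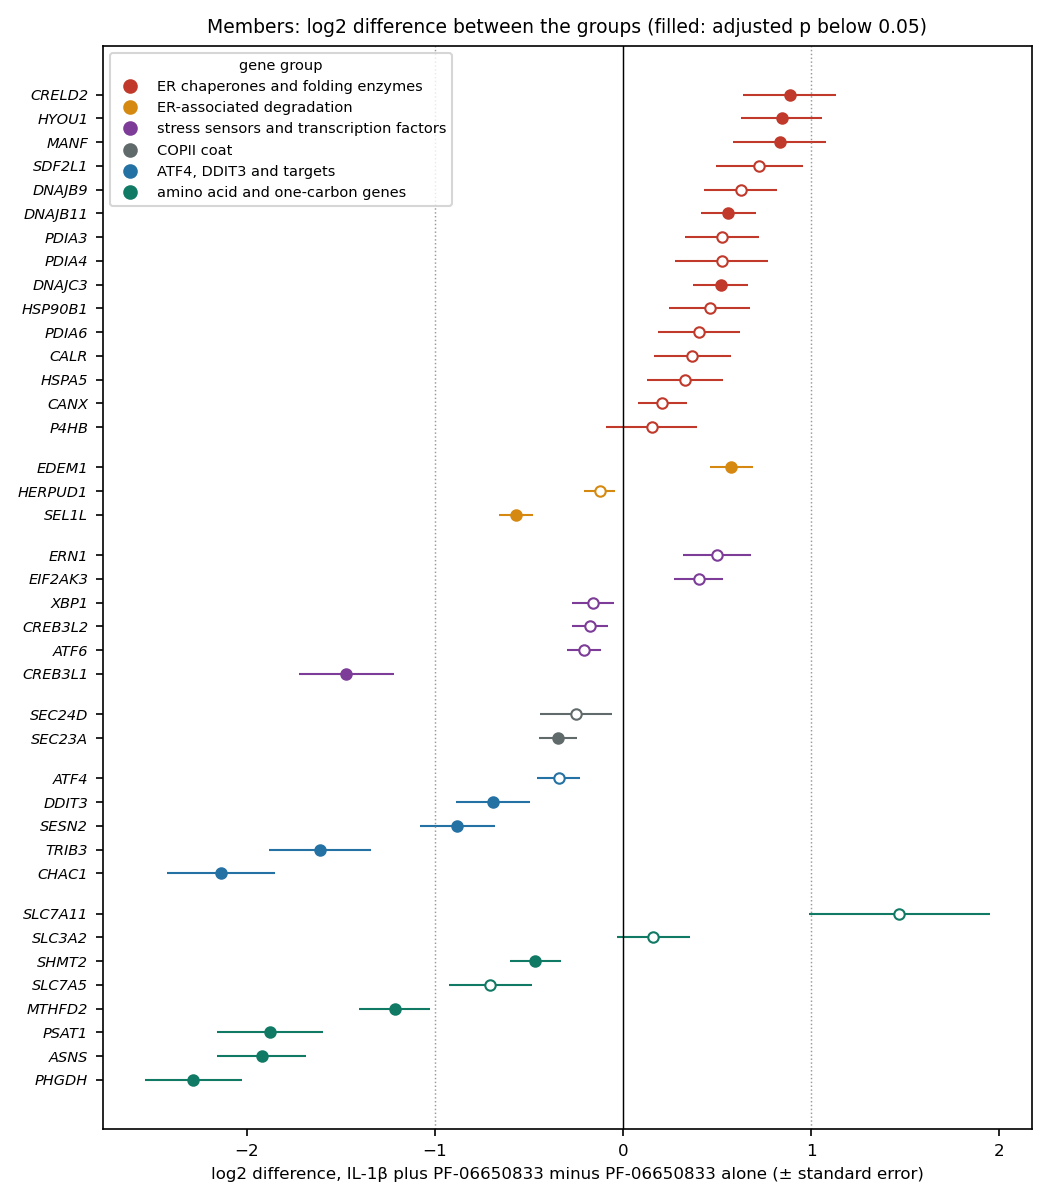
Log2 difference of each of the 39 members with minus without IL-1β (x axis, log2 units; points are differences of the means of 5 libraries, bars the standard error from limma), grouped by function on the y axis. Filled points passed the test at an adjusted p below 0.05; all 15 chaperones lie above 0, between 0.15 and 0.89, while 11 of the 13 genes of the ATF4 branch lie below 0, down to -2.28 for PHGDH.

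Among the chaperones, those that rose were CRELD2, HYOU1, MANF, DNAJB11 and DNAJC3. CRELD2 is a secreted ER stress protein with a folding role. In lines 1 to 5 its log2 expression was 10.65, 10.50, 10.36, 11.08 and 10.68 without IL-1β and 11.98, 11.73, 10.72, 11.21 and 12.06 with it. It was higher in all 5 lines, and the groups overlapped because line 4 was already at 11.08 without IL-1β and line 3 reached only 10.72 with it. Its mean went from 10.65 ± 0.27 (SD, n = 5) to 11.54 ± 0.57 (SD, n = 5), by 0.89 on the log2 scale (standard error 0.25, adjusted p = 0.0328), or 1.85-fold.

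HYOU1 (GRP170) is the nucleotide exchange factor of the ER HSP70. Its values in lines 1 to 5 were 12.42, 12.66, 12.47, 13.37 and 12.72 without IL-1β and 13.43, 13.83, 13.05, 13.50 and 14.04 with it, higher in every line (log2 difference 0.84, standard error 0.21, adjusted p = 0.0225). The smallest step was in line 4, which had the highest level without IL-1β. MANF, a small ER-resident and secreted stress protein, was at 11.61, 11.30, 11.43, 11.70 and 11.46 without IL-1β and 12.65, 12.58, 11.60, 11.79 and 13.04 with it (log2 difference 0.83, standard error 0.25, adjusted p = 0.043). Its spread was wider with IL-1β, with an SD of 0.61 against 0.16.

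DNAJB11 (ERdj3) and DNAJC3 (p58IPK) are J-domain partners of the ER HSP70, and DNAJC3 also restrains the eIF2α kinase PERK. DNAJB11 was the only chaperone whose groups did not overlap. It stood at 11.12, 11.12, 11.20, 11.10 and 11.004 without IL-1β and 11.76, 11.91, 11.31, 11.31 and 12.06 with it (log2 difference 0.56, standard error 0.15, adjusted p = 0.0251). DNAJC3 read 12.66, 12.39, 12.45, 12.71 and 12.59 without IL-1β and 13.11, 13.17, 12.58, 13.10 and 13.45 with it (log2 difference 0.52, standard error 0.15, adjusted p = 0.0351). Lines 3 and 4 were the lowest of the IL-1β libraries for DNAJB11, and line 3 for DNAJC3.

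HSPA5 (BiP, GRP78), the central ER HSP70, did not pass the test. Lines 1 to 5 gave 14.18, 14.26, 14.23, 14.84 and 14.22 without IL-1β and 14.70, 14.98, 14.14, 14.46 and 15.09 with it. It was higher in lines 1, 2 and 5 and lower in lines 3 and 4, and the difference was 0.33 (95% confidence interval -0.11 to 0.77, adjusted p = 0.308). Line 4 without IL-1β was far above the other 4 libraries of its group, and without that library the difference was 0.45 (adjusted p = 0.162). Over the 15 leave-out fits the difference ran from 0.19 to 0.51, and HSPA5 passed in 0 of them. The largest adjusted p from limma (0.668) was without line 5.

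With the replicate block 4 more folding genes passed. HSP90B1 (GRP94), the ER HSP90, had 14.10, 14.06, 13.93, 14.89 and 14.32 without IL-1β and 14.67, 14.82, 14.16, 14.93 and 15.04 with it (log2 difference 0.46, adjusted p = 0.175, and 0.0474 with the block). PDIA3 (ERp57), the disulfide isomerase that works with calnexin and calreticulin, had 14.44, 14.38, 14.13, 14.77 and 14.46 without IL-1β and 14.88, 15.23, 14.34, 15.03 and 15.35 with it (log2 difference 0.53, adjusted p = 0.0953, and 0.0325 with the block). Both were higher within every line but overlapped between the groups.

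PDIA4 (ERp72), another disulfide isomerase, was measured at 13.18, 12.94, 12.66, 13.74 and 13.46 without IL-1β and 13.79, 13.84, 12.97, 13.76 and 14.24 with it (log2 difference 0.52, adjusted p = 0.185, and 0.0321 with the block). SDF2L1, which keeps ER HSP70 and ERdj3 clients soluble, was measured at 9.34, 9.54, 9.41, 9.70 and 9.83 without IL-1β and 10.83, 10.38, 9.61, 9.83 and 10.77 with it (log2 difference 0.73, adjusted p = 0.0576, and 0.0356 with the block). In both genes line 4 moved least.

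The other 5 folding genes passed in neither fit. DNAJB9 (ERdj4) was between 10.999 and 11.47 without IL-1β and between 11.39 and 12.43 with IL-1β (log2 difference 0.63, 95% confidence interval 0.20 to 1.05), and its adjusted p was 0.0506, or 0.0705 with the block. The lectin chaperones CALR, from 14.54 to 15.70 over the 10 libraries, and CANX, from 14.58 to 15.17, had differences of 0.37 (95% confidence interval -0.09 to 0.83) and 0.21 (-0.08 to 0.50). PDIA6 ranged from 12.85 to 14.15 with a difference of 0.40 (-0.08 to 0.89). P4HB, the disulfide isomerase that is also a subunit of the collagen prolyl 4-hydroxylase, ranged from 15.08 to 16.19 with a difference of 0.15 (-0.38 to 0.68). In the main fit, without the block, the intervals of CALR, CANX, PDIA6 and P4HB include 0. With the block, CALR and PDIA6 had an unadjusted p from limma below 0.05 (0.0375 and 0.0384), and adjusted values of 0.113 and 0.115.

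The calls of the chaperones depended on which libraries were included. Without line 1, without line 2 or without line 5, both libraries left out, 0 chaperones passed limma's test, with 6, 7 and 7 at an unadjusted p below 0.05. Without line 3, 8 of 15 passed and without line 4, 5 did. Leaving out single libraries gave 0 passing when it was the PF library of line 1 or line 2, or the IL-1β library of line 2 or line 5. There was 1 passing after removal of the PF library of line 5, 1 after removal of the IL-1β library of line 1, 2 after removal of the PF library of line 3, 3 after removal of the PF library of line 4, 6 after removal of the IL-1β library of line 4 and 9 after removal of the IL-1β library of line 3. The direction of all 15 stayed the same in every one of these fits. The count over all tested genes also moved, against 2782 with all libraries. It was lowest without line 1 (1268) and highest without the IL-1β library of line 4 (3268). Its value in the other fits is not given here, so a loss of calls particular to the chaperones is not shown.

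**Figure D2:**
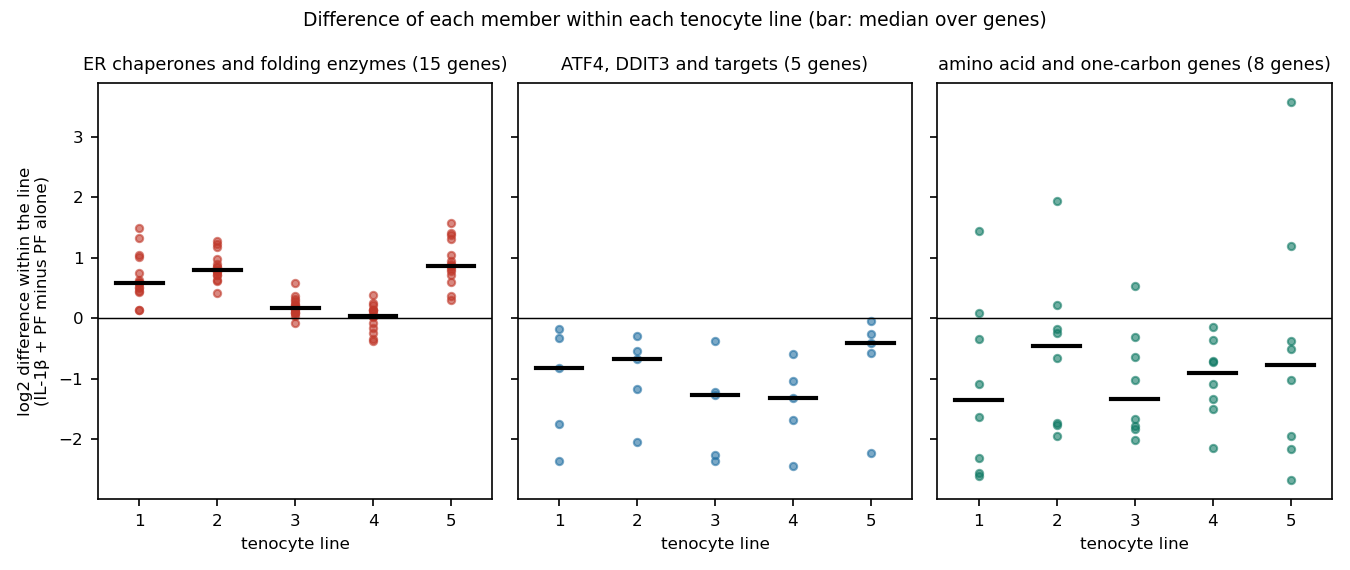
Log2 difference with minus without IL-1β within each tenocyte line (x axis, lines 1 to 5; y axis, log2 units), 1 point per gene and a bar at the median over genes, for chaperones (15 genes), ATF4, DDIT3 and their targets (5 genes) and amino acid genes (8 genes). The median of the chaperones was 0.58, 0.79, 0.17, 0.034 and 0.87 in lines 1 to 5, and the medians of the other panels were below 0 in every line.

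Within the lines, the chaperones differed most in line 5 (median 0.87) and least in line 4, where 5 of 15 were below 0. For ATF4, DDIT3 and their targets the medians were -0.83, -0.67, -1.27, -1.32 and -0.41 in lines 1 to 5, so the largest falls were in lines 3 and 4. For the amino acid genes they were -1.36, -0.46, -1.34, -0.91 and -0.77. The median of all tested genes lay between -0.0068 and 0 in each line. The difference between lines has no replicates and was not tested.

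Of the 3 genes of ER-associated degradation, which returns misfolded proteins to the cytosol for the proteasome, 1 rose and 1 fell. EDEM1, a mannosidase-like protein that sends misfolded glycoproteins to this pathway, rose. Its values in lines 1 to 5 were 13.50, 13.57, 13.47, 13.52 and 13.43 without IL-1β and 14.20, 14.15, 13.93, 13.78 and 14.32 with it, without overlap (log2 difference 0.58, standard error 0.11, adjusted p = 0.00714). It passed in 14 of the 15 leave-out fits, the exception being without line 1 (adjusted p = 0.0516).

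SEL1L, the adaptor of the ubiquitin ligase HRD1, fell in all 5 lines. Its log2 expression was 12.64, 12.52, 12.72, 12.88 and 12.58 without IL-1β and 11.97, 12.08, 12.09, 12.23 and 12.13 with it, again without overlap (log2 difference -0.57, standard error 0.09, adjusted p = 0.00227), and it passed in all 15 leave-out fits. HERPUD1, a membrane scaffold of the same ligase, ranged from 11.65 to 11.92 and from 11.50 to 11.74 in the groups (log2 difference -0.12, 95% confidence interval -0.30 to 0.06). So the listed degradation genes did not share a direction.

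Among the 6 sensors and transcription factors, CREB3L1 was the only one that passed. CREB3L1 (OASIS) is a membrane-bound factor, released by cleavage, that activates collagen and secretory genes in matrix-producing cells. In lines 1 to 5 it was at 13.18, 12.84, 13.48, 13.68 and 13.15 without IL-1β and 11.71, 11.27, 12.32, 12.43 and 11.26 with it. Every library with IL-1β was below every library without it, and the group mean fell from 13.27 ± 0.32 (SD, n = 5) to 11.80 ± 0.56 (SD, n = 5), which is a log2 difference of -1.47 (standard error 0.25, adjusted p = 0.00345), or 2.77-fold lower. It passed in all 15 leave-out fits.

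Its relative CREB3L2, with values from 12.66 to 12.95 and from 12.52 to 12.77, was lower in all 5 lines by small amounts (log2 difference -0.17, 95% confidence interval -0.38 to 0.03, adjusted p = 0.249). XBP1 showed 13.31, 13.12, 13.28, 13.59 and 13.33 without IL-1β and 13.16, 13.26, 12.97, 13.08 and 13.37 with it in lines 1 to 5. It was higher in lines 2 and 5 and lower in the other lines (log2 difference -0.16, 95% confidence interval -0.40 to 0.09, adjusted p = 0.382). Gene-level values do not separate spliced from unspliced XBP1.

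Of the 3 sensors, ERN1 was higher in all 5 lines (0.50, adjusted p = 0.0873, and 0.0505 with the block), as was EIF2AK3 (0.40, adjusted p = 0.0634), and ATF6 was lower in all 5 (-0.21, adjusted p = 0.148). None of these passed the test in either fit. Their ranges over the 10 libraries were 10.55 to 11.65 for ERN1, 10.98 to 11.99 for EIF2AK3 and 11.66 to 12.09 for ATF6.

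SEC23A and SEC24D build the inner COPII coat of the vesicles that leave the ER, and mutations of either gene are known from skeletal disease. SEC23A had 12.82, 12.53, 12.81, 12.98 and 12.85 without IL-1β and 12.46, 12.44, 12.41, 12.65 and 12.32 with it, lower in all 5 lines with overlap (log2 difference -0.34, standard error 0.10, adjusted p = 0.0412). This call was lost in 13 of the 15 leave-out fits, and it stood only after removal of the PF library of line 2 and after removal of the IL-1β library of line 4. SEC24D, from 12.63 to 13.77, was lower in 4 lines and did not pass (log2 difference -0.25, 95% confidence interval -0.67 to 0.17 without the block). Its limma p with the block was 0.0439 unadjusted and 0.126 adjusted. The table lists the gene that RefSeq names MIA3 under its LOC number, and there it was at 8.32, 8.48, 8.38, 9.11 and 7.58 without IL-1β and 8.23, 8.25, 8.19, 8.63 and 7.04 with it (log2 difference -0.31, adjusted p = 0.588). It was lower in all 5 lines, and its limma p with the block was 0.0423 unadjusted and 0.123 adjusted.

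**Figure D3:**
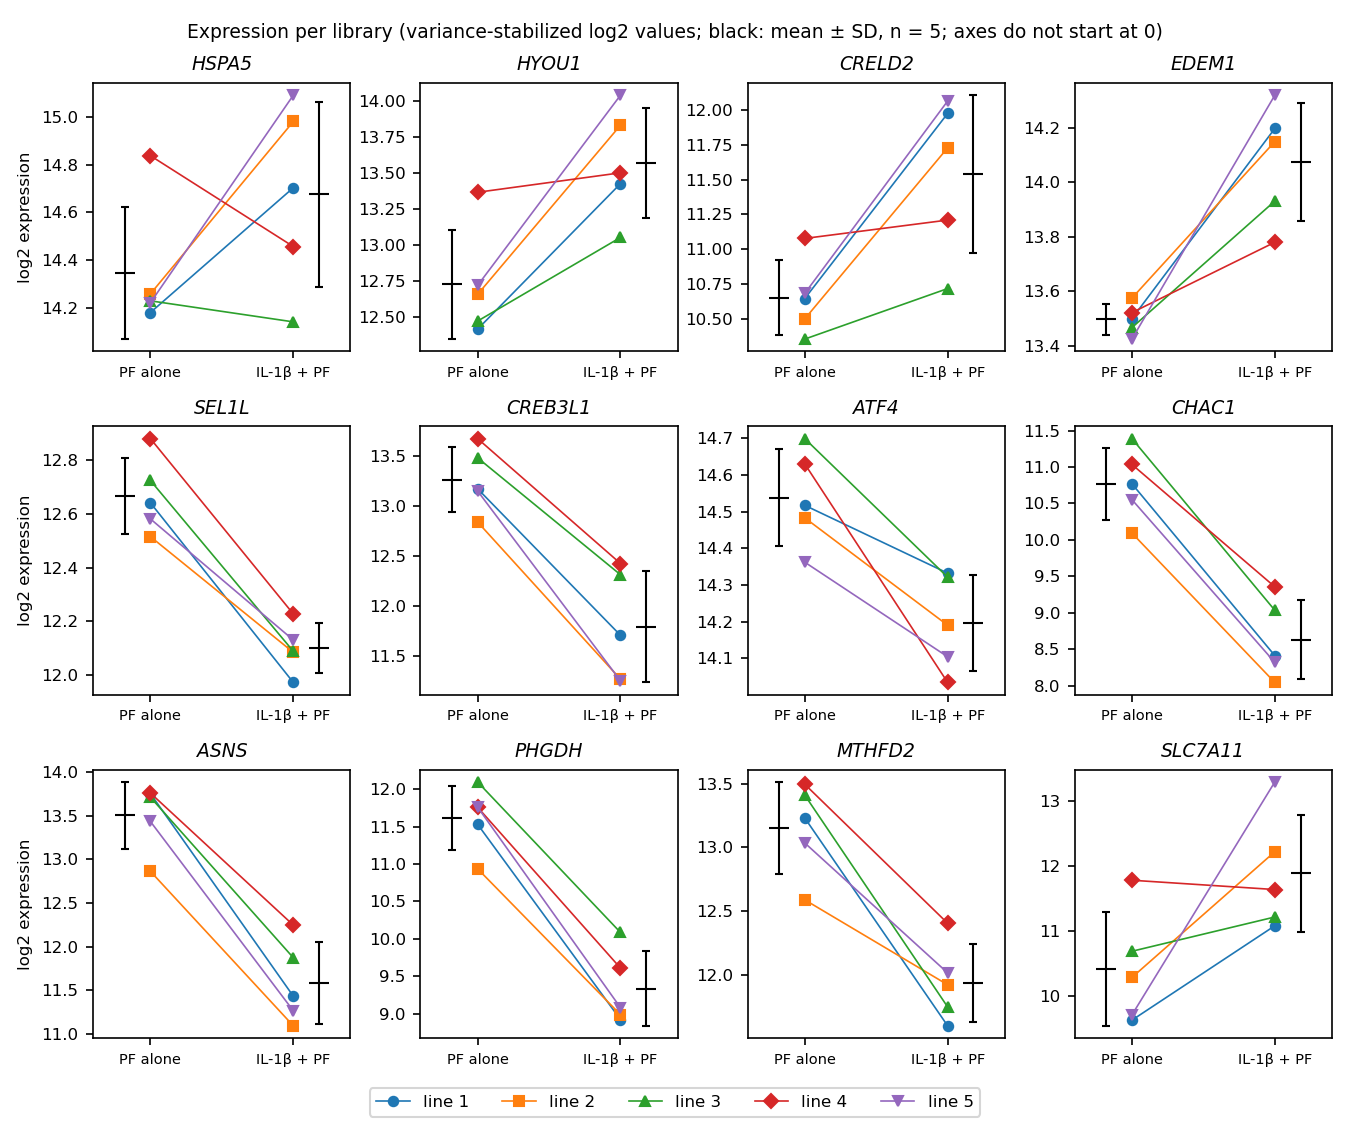
Log2 expression (y axis, deposited variance-stabilized values; axes differ between panels and do not start at 0) of 12 members in each library, without IL-1β on the left and with IL-1β on the right of each panel. Lines join the libraries of 1 tenocyte line, and the black bars are the mean ± SD of 5 libraries; ASNS, PHGDH, CHAC1 and CREB3L1 fell in all 5 lines without overlap, while HSPA5 was higher in lines 1, 2 and 5 and lower in lines 3 and 4.

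The 5 genes of ATF4, DDIT3 and their stress targets were all lower, in every line. ATF4 mRNA itself moved least, with 14.52, 14.48, 14.70, 14.63 and 14.36 without IL-1β and 14.33, 14.19, 14.32, 14.03 and 14.10 with it in lines 1 to 5. The groups did not overlap (log2 difference -0.34, standard error 0.11), yet the adjusted p was 0.0619, and 0.0494 with the block. ATF4 is controlled mostly by translation, which RNA does not show.

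CHAC1, which degrades glutathione, had the largest fall of these 5. It was at 10.77, 10.09, 11.39, 11.04 and 10.55 without IL-1β and 8.41, 8.04, 9.03, 9.36 and 8.32 with it, with a log2 difference of -2.14 (standard error 0.29, adjusted p = 0.000972), or 4.4-fold lower. TRIB3, a pseudokinase that dampens ATF4 and DDIT3, was at 10.51, 10.10, 11.08, 11.37 and 10.04 without IL-1β and 8.76, 8.92, 8.82, 8.92 and 9.63 with it (log2 difference -1.61, standard error 0.27, adjusted p = 0.00311). Neither gene overlapped between the groups, and line 5 with IL-1β was the highest of its group for TRIB3, at 9.63 against 8.76 to 8.92.

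SESN2, which lowers mTORC1 activity when leucine is short, had 11.23, 10.92, 12.00, 11.74 and 11.07 without IL-1β and 10.41, 10.25, 10.73, 10.69 and 10.49 with it, without overlap (log2 difference -0.88, standard error 0.20, adjusted p = 0.0134). DDIT3 (CHOP), the factor tied to death under lasting ER stress, had 10.33, 10.40, 10.93, 10.47 and 9.96 without IL-1β and 9.99, 9.86, 9.70, 9.15 and 9.92 with it (log2 difference -0.69, standard error 0.20, adjusted p = 0.0359). DDIT3 fell by over 1 in lines 3 and 4 and by 0.04 in line 5. The calls of CHAC1 and TRIB3 stood in all 15 leave-out fits, and that of SESN2 in 14, with an adjusted p of 0.0608 without line 1. That of DDIT3 stood in 5 of them, without line 5 in either or both groups and after removal of the IL-1β library of line 1 or of line 4.

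Of the 8 amino acid genes, 5 fell, among them both listed enzymes of serine synthesis and asparagine synthetase. PHGDH, the entry enzyme of serine synthesis, had 11.53, 10.94, 12.10, 11.76 and 11.76 without IL-1β and 8.92, 8.99, 10.09, 9.61 and 9.08 with it in lines 1 to 5. All libraries with IL-1β lay below all others, and the group mean fell from 11.62 ± 0.43 (SD, n = 5) to 9.34 ± 0.50 (SD, n = 5), which is a log2 difference of -2.28 (standard error 0.26, adjusted p = 0.000386), or 4.87-fold lower. PSAT1, the next enzyme of the pathway, was at 13.77, 13.21, 13.74, 14.18 and 13.56 without IL-1β and 11.21, 11.48, 11.96, 12.84 and 11.61 with it (log2 difference -1.88, standard error 0.28, adjusted p = 0.00172). ASNS, which makes asparagine, was at 13.75, 12.86, 13.71, 13.76 and 13.43 without IL-1β and 11.43, 11.09, 11.87, 12.25 and 11.27 with it (log2 difference -1.92, standard error 0.24, adjusted p = 0.000644). None of these 3 genes overlapped between the groups.

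In the mitochondrial folate pathway, which takes up the carbon of serine, both listed genes fell. MTHFD2 was at 13.23, 12.59, 13.41, 13.49 and 13.04 without IL-1β and 11.60, 11.92, 11.75, 12.40 and 12.02 with it (log2 difference -1.21, standard error 0.19, adjusted p = 0.00218), without overlap. SHMT2, the step before it, was at 13.53, 13.14, 13.72, 13.85 and 13.37 without IL-1β and 13.18, 12.89, 13.08, 13.12 and 13.00 with it (log2 difference -0.47, standard error 0.14, adjusted p = 0.039), with overlap. PHGDH, PSAT1, ASNS and MTHFD2 passed in all 15 leave-out fits, and SHMT2 in 3, after removal of the PF library of line 2, after removal of the IL-1β library of line 4 and without line 2.

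Of the 3 listed transporter genes, 0 passed limma's test without the block, with SLC7A5 and SLC7A11 at an unadjusted p below 0.05, and SLC7A5 passed with it. SLC7A5 (LAT1), which imports leucine and other large neutral amino acids, had 12.74, 12.58, 13.25, 13.48 and 12.78 without IL-1β and 11.65, 12.40, 12.22, 12.77 and 12.26 with it, lower in all 5 lines (log2 difference -0.70, adjusted p = 0.053, and 0.0118 with the block). SLC3A2 (4F2hc), the shared heavy chain of SLC7A5 and SLC7A11, ranged from 12.51 to 13.22 and from 12.71 to 13.70 (log2 difference 0.16, 95% confidence interval -0.27 to 0.59). SLC7A11 (xCT), the cystine importer, was at 9.63, 10.29, 10.69, 11.78 and 9.71 without IL-1β and 11.08, 12.22, 11.21, 11.64 and 13.29 with it. It was higher in 4 lines and lower in line 4, and its difference of 1.47 varied from -0.14 in line 4 to 3.58 in line 5 (95% confidence interval 0.42 to 2.52). Its adjusted p was 0.0618, and 0.0581 in the blocked model. It passed after removal of the PF library of line 4 and without line 4, and in none of the other 13 such fits. SLC7A11 is thus the ATF4-branch gene with the largest value above 0, with a spread between lines wider than that of any other member.

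Genes of the same pathways outside the members were taken from lists of symbols. Of 48 tested further targets of ATF4, 31 were lower, 1 was higher and 16 did not pass (median log2 difference -0.75), where 7.89% of all tested genes were lower and 7.57% higher. With the replicate block 32 were lower and 2 higher, where 11.3% and 10.9% of all genes were. At an absolute log2 difference of at least 1, 19 were lower and 1 higher, where 6.68% of all genes passed in either direction. By smallest adjusted p the list was led by SARS1, CEBPB and IARS1. SARS1, the seryl-tRNA synthetase, differed by -1.12 (standard error 0.10, adjusted p = 0.000141) and IARS1, the isoleucyl-tRNA synthetase, by -1.02 (standard error 0.10, adjusted p = 0.000221). CEBPB, a partner of ATF4 that inflammatory cytokines also induce, was the gene that rose (by 1.5, standard error 0.15, adjusted p = 0.000186). Over the 15 leave-out fits, 26 to 33 of the 48 were lower, where 1268 to 3268 of the 17992 tested genes passed in either direction.

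Of the 12 aminoacyl-tRNA synthetases in that list, which charge tRNA with amino acids, 11 fell and WARS1 did not pass (log2 difference -0.54, adjusted p = 0.243). Of its 6 amino acid transporters, 5 fell, among them SLC1A4 (-2.19, adjusted p = 0.000691) and SLC1A5 (-1.39, adjusted p = 0.00116), and SLC38A2 did not pass (0.28, adjusted p = 0.249). These subsets, and PYCR1 of proline synthesis (-1.90, adjusted p = 0.000319), were picked out after the values were seen.

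**Figure D4:**
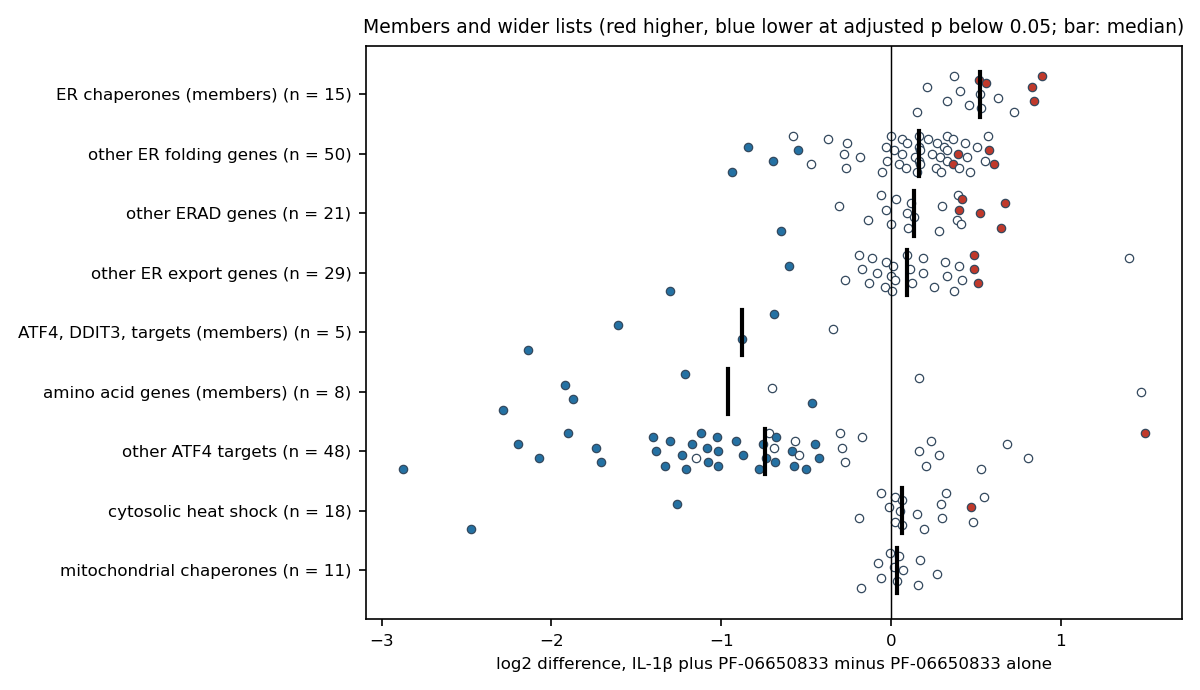
Log2 difference with minus without IL-1β (x axis, log2 units) for the members and for other genes of the same or related pathways (y axis, lists with the number of tested genes), 1 point per gene and a bar at the median. Red points were higher and blue points lower at an adjusted p below 0.05; of 48 other ATF4 targets 31 are blue and 1 is red, while the other ER folding genes hold 4 of each.

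Of 50 tested further genes of ER folding, 4 were higher, 4 lower and 42 did not pass (median log2 difference 0.17), which is near the share of all tested genes (7.57% higher and 7.89% lower). With the replicate block 8 were higher and 5 lower, where 10.9% and 11.3% of all genes were. Those with the smallest adjusted p were P4HA3, a catalytic subunit of the collagen prolyl 4-hydroxylase (-0.84, adjusted p = 0.00169), QSOX1, a disulfide oxidase of the secretory pathway (-0.94, adjusted p = 0.0146), and ERO1B, which reoxidises disulfide isomerases (0.58, adjusted p = 0.0194). Of 21 further degradation genes, 5 were higher and 1 lower (median 0.14), where 7.57% and 7.89% of all tested genes were. HERPUD2, the paralogue of HERPUD1, fell (-0.65, adjusted p = 0.00241), while VCP, the ATPase that pulls proteins out of the ER membrane, rose (0.67, adjusted p = 0.00512), as did the ubiquitin ligase gene RNF5 (0.65, adjusted p = 0.00517).

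Of 29 further genes of ER export, 3 were higher and 2 lower (median 0.094), a count near the 15.5% of all tested genes that passed. With the replicate block 6 were higher and 2 lower, where 10.9% and 11.3% of all genes were. SEC24C, a COPII cargo adaptor, rose (0.51, adjusted p = 0.00289), and SEC16B (-1.30, adjusted p = 0.00454) and ERGIC1 (-0.60, adjusted p = 0.00501) fell. Of 14 tested further sensors and regulators, 2 were higher and 2 lower (median 0.058), where 7.57% and 7.89% of all tested genes were, and 3 and 3 with the replicate block, where 10.9% and 11.3% were. CREB3L4, a relative of CREB3L1, rose (1.42, adjusted p = 0.00158) with 18 to 145 reads per library. NFE2L2, the antioxidant factor NRF2 and a substrate of PERK, rose (0.57, adjusted p = 0.00398), and PPP1R15B, a subunit of the phosphatase of eIF2α, fell (-0.70, adjusted p = 0.00465).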

How the data were processed

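RNA of 5 equine tenocyte lines was sequenced after 14 days with PF-06650833, without or with IL-1β. The authors quantified reads with Salmon (version 1.8) on the EquCab3.0 transcriptome, and deposited log2 values after DESeq2 (version 1.36). The sources used here do not name the transformation, and it was taken as variance-stabilizing, since all libraries share a lowest value of 3.433 and its inverse gives mostly whole reads. All 10 columns were used.

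Genes above that value in at least 5 libraries (17992 of 29196) entered a linear model in limma (3.58.1, run in R 4.3.3) that lets the variance follow mean expression, and p-values were adjusted after Benjamini and Hochberg. The paper states no term for the line, so the main model has none, and a second model holds the replicate number as a block. Standard errors and confidence intervals are those of the main model, which leaves out the pairing by line. With the block the standard error was 0.117 against 0.252 for CREB3L1 and 0.139 against 0.248 for PDIA4. For TRIB3 it was 0.279 against 0.271. The replicate numbers follow the line names in the sample titles. Libraries of the same line deviated together from the group means (correlations 0.367 to 0.506 over 5 pairs). The mean of -0.107 over 20 pairs of different lines is largely set by removing the group means, so it is no separate support for the pairing. Normalized counts were recovered by inverting the transformation, and reads from the spacing of low values, of which 73.5% to 88.8% per library lay within 0.15 of a whole read. Evenly spread values would give 30%. The spacing was chosen as the one at which these same values were nearest to whole reads, so the share is in part built in. The depth estimates are approximate, since they rest on the assumed transformation and on the estimated spacing, and their error was not computed.

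The members and lists were chosen with earlier results of these data known. Values in all libraries are given for members that passed in either fit and for HSPA5, XBP1, ATF4, DDIT3, SLC7A11 and MIA3, the last of which, like SLC7A11, was added after the values were seen, and from each wider list the 3 genes with the smallest adjusted p. For 12 tRNA synthetases older symbols were used. RefSeq names are from another horse assembly. No sequences or positions are given. The fit was tested on simulated counts with a shared dispersion and no line effect. Such data cannot decide between the models without and with the block. Alternatives were other thresholds, filters, scales, normalizations, variance models, and leaving out each library or line.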

Additional observations from a re-analysis of the deposited data

Results flagged for a closer look

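Among the 39 members in both groups, 78 groups of 5 libraries, a library stood far from the other 4 in 2, where chance gives about 3.9 (1 in 20). HSPA5 was at 14.84 in line 4 without IL-1β, against 14.18 to 14.26 in the other 4 lines. TRIB3 was at 9.63 in line 5 with IL-1β, against 8.76 to 8.92, and without that library its log2 difference was -1.76 (adjusted p = 0.00308). The cause of either was not tested.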

How the results depend on the processing

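Over all tested genes 2782 passed the test, 1202 with an absolute log2 difference of at least 1, 1144 at an adjusted p below 0.01, and between 1268 and 3268 across the 15 leave-out fits. These are counts from limma and not those of the paper, which used DESeq2. The 6 members that were higher became 10 with the replicate block, 11 with the block and each library centred on its median (chosen after the data were seen), 0 with the minimum difference and 1 at an adjusted p below 0.01. The block added HSP90B1, PDIA3, PDIA4, SDF2L1, ATF4 and SLC7A5 and changed no other member's call. The higher members ranged from 0 to 11 when a library or a line was left out, and with the block, a choice also made after the data were seen, were 0, 1, 9, 15 and 2 without lines 1, 2, 3, 4 and 5. The 12 lower members became 7 with the minimum difference, and ranged from 8 to 13 when a library or a line was left out, and from 9 to 12 when a line was left out with the block. The shares of all tested genes in the blocked leave-out fits are not given here. Other filters, scales, normalizations and variance models gave 4 to 9 higher and 9 to 13 lower members. With each library centred on its median, 7 chaperones were higher and 7 genes of the ATF4 branch lower, against 5 and 9. All member directions held in every fit except that of SLC3A2, which was 0.16, and ran from -0.10 without line 5, with or without the replicate block, to 0.30 without line 4. The cause of these changes was not tested beyond the smaller number of libraries. Small differences such as those of CANX or P4HB did not pass with 5 lines, and the smallest difference that could be detected was not computed.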

Other observations

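Stress genes of other compartments were compared in the same fit. Of 18 tested genes of the cytosolic heat-shock response, 1 was higher and 2 were lower (median log2 difference 0.064), and 2 and 2 with the replicate block. These counts are near the shares of all tested genes, of which 15.5% passed, and 22.2% with the block. CRYAB, the small heat-shock protein αB-crystallin, had a log2 difference of -2.47 (adjusted p = 0.00269), HSPB8 one of -1.26 (adjusted p = 0.0437) and FKBP4, a cochaperone of HSP90, rose by 0.47 (adjusted p = 0.0381). Of 11 tested mitochondrial chaperones and proteases, 0 passed limma's test in either fit and 0 had an unadjusted p below 0.05, with differences between -0.18 and 0.27.

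After removal of the group means, the log2 values of the chaperones varied together over the 10 libraries, with a median Pearson correlation of 0.81 over 105 pairs of genes (quartiles 0.69 and 0.90). For the 8 amino acid genes the median was 0.53 over 28 pairs, and between chaperones and amino acid genes it was 0.11 over 120 pairs. The libraries share lines and a common normalization, and these correlations carry no test. The median over pairs of all tested genes is not given here, so the value of the chaperones is not shown to be particular to them.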
